A study of Homo sapiens with 6 samples.

Results

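A set of 10 genes encoding core subunits of the Polycomb repressive complexes was followed through an RNA pull-down of CyCoNP in SK-N-BE cells. They are PCGF2, PCGF1, PCGF3, PCGF6, BMI1, RING1, RNF2, EZH2, EED and SUZ12, 10 of the 60676 entries of the gene count table, and each was found by the Ensembl identifier that carries its symbol in GENCODE. PCGF2 was selected on its counts in these libraries, high in CyCoNP PD and at or near 0 in input and LacZ PD, so its values are a description without a test. The other 9 were taken as further subunits of these complexes, not all from the complex that holds PCGF2. Another 36 Polycomb genes were read beside them.

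SK-N-BE is a human neuroblastoma line, and all 6 libraries came from these cells after 1.5 days in differentiation medium with 10 µM retinoic acid. CyCoNP, annotated as LINC02381, is a long noncoding RNA, and the pull-down used 22 biotinylated antisense probes of 20 bases to retrieve it from a native extract, along with any RNA bound to it. The control pull-down used 5 probes against LacZ, a bacterial gene, and the input was extract that met no probes. Input, CyCoNP PD and LacZ PD had 2 libraries each, all from 1 cell line. The pull-down samples are described as biological duplicates, and p-values measure the spread between these few libraries.

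Polycomb proteins keep developmental genes silent through 2 families of complexes. Polycomb repressive complex 1 attaches ubiquitin to a histone through RING1 or RNF2, each paired with 1 protein of the PCGF family, and the PCGF protein decides which further subunits join. Polycomb repressive complex 2 methylates histone H3 through EZH2, with EED and SUZ12 as the subunits that make the enzyme active. In neural tissue these complexes are known for restraining homeobox genes until the time and place at which each is used. The measurements here are of the messenger RNAs of these subunits and say nothing of the proteins.

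The depth of the libraries sets what can be said of genes with so few reads. Total counts were 717905 and 791970 for input, 1512148 and 514882 for CyCoNP PD, and only 18870 and 140115 for LacZ PD. Scaled to the total of each library, as CPM, a gene needed 159 CPM to reach 3 counts in LacZ PD 1 and 21.4 CPM in LacZ PD 2, so that the input level of most of these genes could not be told from 0 in LacZ PD 1. CyCoNP itself had input counts of 20 and 39, CyCoNP PD counts of 11687 and 3507, and LacZ PD counts of 1 and 20. All 11 neuroblastoma markers had counts in both input libraries. The 6 fibroblast and stromal markers, collagens among them, summed to 508, 327 and 477 CPM in the first input, CyCoNP PD and LacZ PD library but to 37.9, 62.2 and 21.4 CPM in the second of each, with POSTN at 0 in every library. In bulk libraries such as these, more cells of a type and more RNA per cell cannot be told apart. The 8 Schwann cell and leukocyte markers were at or near 0. Because PCR copies carry no molecular identifiers here and reads are not independent molecules, the intervals and limits given cover counting error alone.

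PCGF2 is the PCGF subunit that, like its close relative BMI1, builds the complex with CBX and polyhomeotic proteins. Its gene (ENSG00000277258) lies at chr17:38733898-38749817 on the minus strand of GRCh38, and its canonical transcript has 11 exons. The count was 0 in input 1, 9 in input 2, 459 in CyCoNP PD 1, 509 in CyCoNP PD 2, and 0 in both LacZ PD libraries. The CyCoNP PD libraries therefore stood apart from the other 4, which held 9 counts between them. PCGF2 passed the minimum of 10 counts over the 6 libraries only through CyCoNP PD.

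As a share of each library, PCGF2 took 303.5 CPM (95% Wilson interval 277 to 333) of CyCoNP PD 1 and 988.6 CPM (906 to 1078) of CyCoNP PD 2. It took 11.4 CPM (5.98 to 21.6) of input 2. The count of 0 in input 1 was taken at 4.18 CPM, the level of 3 counts, below its Wilson limit of 5.35 CPM. CyCoNP PD 1 was thus 26.7 times and CyCoNP PD 2 87.0 times the level of input 2. Between libraries of the same number, CyCoNP PD 2 was 87.0 times input 2, and CyCoNP PD 1 was 72.6 times input 1 taken at 3 counts. Against LacZ PD, taken at 3 counts per library, the mean CPM of CyCoNP PD was 7.16 times as high. This ratio was 30.2 without LacZ PD 1 and 4.06 without LacZ PD 2, so the depth of the control decides it. These ratios use the mean, which CyCoNP PD 2 raises. By library number, 303.5 CPM in CyCoNP PD 1 stood beside a floor of 159 CPM in LacZ PD 1, whose Wilson limit was 204 CPM. In the second pair, 988.6 CPM stood beside a floor of 21.4 CPM.

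**Figure D1:**
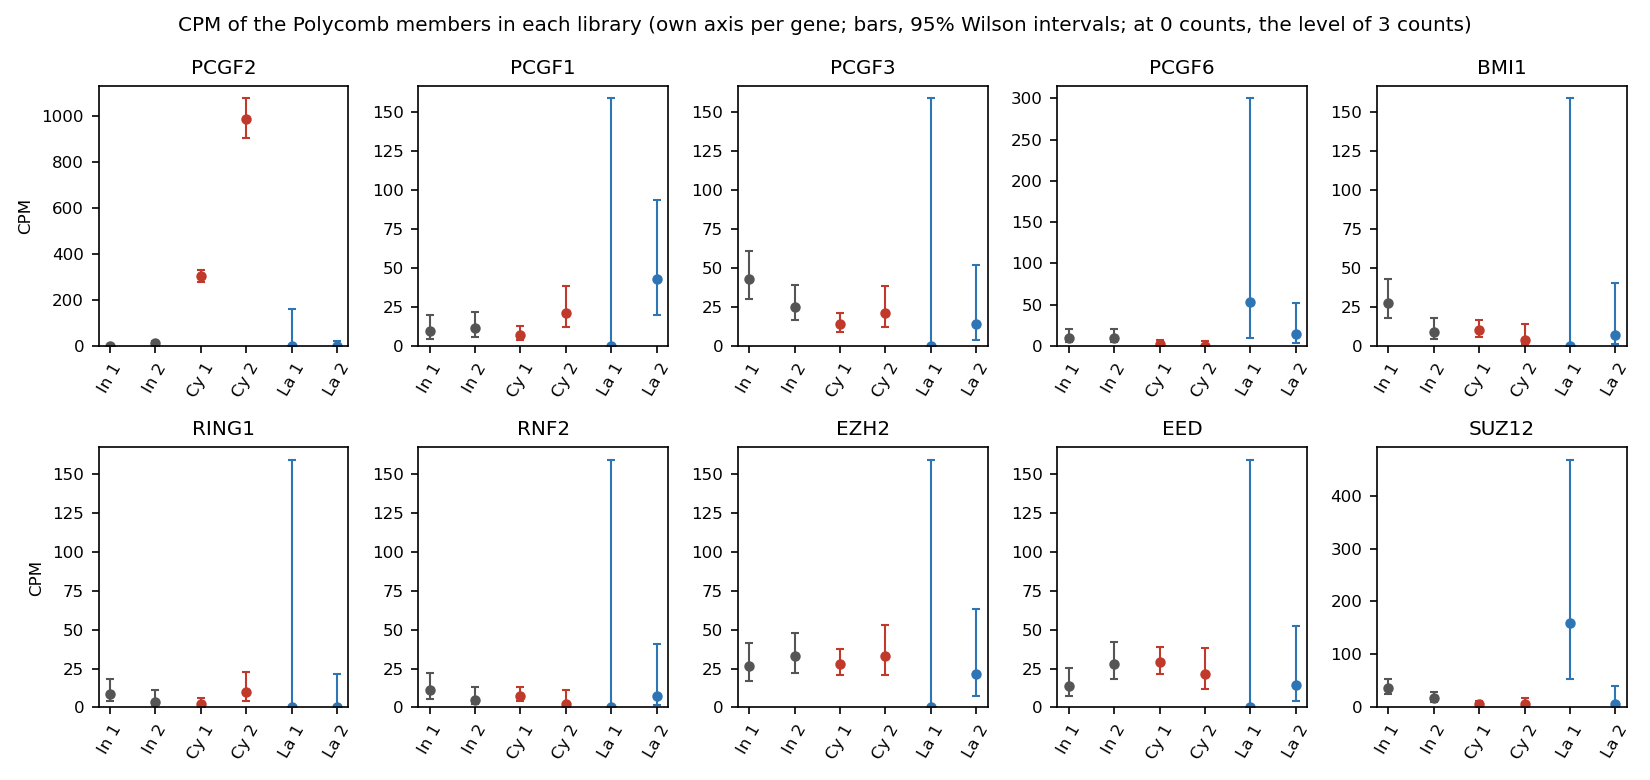
CPM of each of the 10 Polycomb genes in input (In, grey), CyCoNP PD (Cy, red) and LacZ PD (La, blue) libraries 1 and 2, with 95% Wilson intervals (at 0 counts, the level of 3 counts) and a separate linear axis from 0 for each gene. PCGF2 reaches 303.5 and 988.6 CPM in CyCoNP PD, and the wide intervals of LacZ PD 1 reflect its 18870 counts.

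The 2 CyCoNP PD libraries did not give the same level. CyCoNP PD 2 held 3.26 times the PCGF2 share of CyCoNP PD 1, and the Wilson intervals did not overlap. Over the 2714 genes with at least 100 counts in CyCoNP PD this ratio had a median of 0.971, and 1.99% of them were at or above PCGF2. CyCoNP had a ratio of 0.881, near that median, whereas PCGF2 lay well above it.

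In the fit over all 12565 tested genes, the log2 fold change of PCGF2 in CyCoNP PD against input was 6.74 (SE 1.17). It is given without a test, because the gene was picked for this difference. The value was 5.75 without input replicate 1, 11.58 without input replicate 2, 7.34 without CyCoNP PD replicate 1 and 5.71 without CyCoNP PD replicate 2. The largest of these has no input count left beneath it and is no bound.

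The position of PCGF2 in the genome bears on its counts. Its last exon, exon 11 of 1703 bases, lies wholly inside exon 4 of CISD3 (ENSG00000277972, chr17:38730341-38735605), which is read from the opposite strand. CISD3 encodes a mitochondrial iron-sulphur protein. The shared bases make up 64.7% of the canonical PCGF2 transcript, including all 1328 bases of its 3′ untranslated region, and 66.7% of the canonical CISD3 transcript. Whether the counting used strand is not given in the sources used here, and without strand a read from one gene cannot be told apart from a read of the other over this stretch.

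CISD3 had input counts of 51 and 68, CyCoNP PD counts of 123 and 70, and LacZ PD counts of 1 and 8. Its CPM were 71.0 and 85.9 in input, 81.3 and 136 after CyCoNP PD, and 53.0 and 57.1 after LacZ PD, so that the CyCoNP PD libraries overlapped the inputs for CISD3. The log2 fold change of CISD3 in CyCoNP PD against input was 0.51 (SE 0.61, adjusted p = 1.00 by edgeR's quasi-likelihood test).

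Counted together, the pair took 71.0 and 97.2 CPM of input, 385 and 1125 CPM of CyCoNP PD, and 53.0 and 57.1 CPM of LacZ PD. Both CyCoNP PD libraries were still above the other 4. PCGF2 made up 0% and 11.7% of the pair in input, 78.9% and 87.9% in CyCoNP PD, and 0% in both LacZ PD libraries. With the counts summed, a step added after the data were seen, the log2 fold change against input was 3.19 (SE 0.71) in place of 6.74, likewise without a test.

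Neighbouring genes within 20000 bases of PCGF2 gave no such pattern. PSMB3, a proteasome subunit gene on the far side of PCGF2 from CISD3, had 326 and 332 CPM in input, 286 and 299 CPM after CyCoNP PD, and 318 and 464 after LacZ PD. MLLT6 had 20.9 and 29.0 CPM in input and 28.4 and 31.1 CPM in CyCoNP PD. PIP4K2B, a lipid kinase gene, had 19.5 and 16.4 CPM in input and 23.1 and 9.71 CPM in CyCoNP PD. The unnamed noncoding gene ENSG00000277182, which shares 456 exonic bases with PCGF2 on the opposite strand, had 5 counts in CyCoNP PD 2, 1 in input 2 and 0 elsewhere. The other entries within this distance had at most 1 count in any library.

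The longest identical stretch between any transcript of PCGF2 and any of BMI1 was 14 bases, and with PCGF1, PCGF3, PCGF5 and PCGF6 it was at most 17 bases on either strand. With CISD3 it was 1704 bases, on the opposite strand.

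The probes are the sequences that decide what a pull-down retrieves directly, and the longest exact complement between any CyCoNP probe and the transcripts of a gene was therefore read. For PCGF2 it was 11 bases, and 32.9% of the tested genes had a stretch as long or longer, around a median of 10. The site lies in exon 1, in the 5′ untranslated region of a transcript other than the canonical one (ENST00000616129), at chr17:38748348-38748358 on the minus strand. The LacZ probes reached 8 bases of PCGF2, which is the median over the tested genes. The probes come from the study's oligonucleotide list and the sites from GENCODE v44 on GRCh38, each 5′ to 3′, with the complementary bases in capitals:
CyCoNP probe that faces PCGF2: gggaactGGAGGGAGAGGtc
PCGF2 site: tcccctccCCTCTCCCTCCcaccccaa
CyCoNP probe with the longest complement to any Polycomb gene: tttGTGAGGCCAGAGAACAG
PHF19 site: gtcttCTGTTCTCTGGCCTCACcccct

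PHF19, a subunit that guides Polycomb repressive complex 2 to chromatin and that was named here after its values were seen, had the longest complement of the Polycomb genes. Its 17 bases lie in the 3′ untranslated region in exon 15, at chr9:120857216-120857232 on the minus strand, and 0.016% of the tested genes had as many. PHF19 had 29.3 and 36.6 CPM in input, 45.6 and 29.1 CPM after CyCoNP PD, and 0 and 57.1 after LacZ PD. Whether a stretch of this length is enough for direct capture by a probe was not tested. The CyCoNP PD and input libraries overlapped, and the log2 fold change was 0.26 (SE 0.72, adjusted p = 1.00 by edgeR).

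The study also concerns miR-4492, a microRNA that CyCoNP can bind. Its mature sequence, from RefSeq on GRCh38.p14, is shown with the seed (bases 2 to 8) in capitals:
hsa-miR-4492: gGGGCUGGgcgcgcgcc
The seed pairs with CCAGCCC, searched here on the transcript strand only. The canonical PCGF2 transcript held 2 such matches and that of ASXL1 held 4. Of the canonical transcripts of the tested genes, 40.8% held at least 1, 19.1% at least 2 and 5.44% at least 4. A match is a run of letters and not a measured site. The canonical PCGF2 transcript was 2634 bases long with 56.3% G and C, beside medians of 2888.5 bases and 47.6% over the tested genes.

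Among the other PCGF genes and the catalytic partners, no gene passed the test as higher in CyCoNP PD. In CyCoNP PD against input, 0 of the 9 members other than PCGF2 were called higher and 0 lower by edgeR, with calls needing an adjusted p under 0.05 and a log2 fold change past 1. Over all tested genes 0.119% were called higher and 0.00796% lower, so that no call among 9 genes is what this background gives. At an unadjusted p under 0.05, 0 of the 9 were higher and 1, SUZ12, was lower, beside 3.08% and 2.32% of all genes. DESeq2 gave an adjusted p for only 2 of the 9, EZH2 and SUZ12, and called neither, with 1.22% of the genes it gave one called higher and 0.294% lower. Their median log2 fold change was -0.54, with a median of -0.01 over all genes, and 3 were above 0 and 6 below.

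BMI1, the relative of PCGF2 that fills the same place in the complex (ENSG00000168283, chr10:22321099-22331484), had input counts of 20 and 7, CyCoNP PD counts of 15 and 2, and LacZ PD counts of 0 and 1. Its CPM were 27.9 and 8.84 in input and 9.92 and 3.88 in CyCoNP PD, so the groups overlapped. The log2 fold change was -1.16 (SE 0.92, adjusted p = 1.00 by edgeR). The read-through gene COMMD3-BMI1, which shares 1000 of its exonic bases, had 0 counts in every library.

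PCGF1, the subunit of the complex with KDM2B and BCOR (ENSG00000115289, chr2:74505043-74507695), had input counts of 7 and 9, CyCoNP PD counts of 11 and 11, and LacZ PD counts of 0 and 6. Its CPM of 7.27 in CyCoNP PD 1 lay below and its 21.4 in CyCoNP PD 2 above the 9.75 and 11.4 of input. The log2 fold change was 0.39 (SE 0.90), the highest of the 9.

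PCGF3, which works with AUTS2 and FBRS (ENSG00000185619, chr4:705748-770089), had input counts of 31 and 20, CyCoNP PD counts of 21 and 11, and LacZ PD counts of 0 and 2. Both CyCoNP PD libraries, at 13.9 and 21.4 CPM, were below the 43.2 and 25.3 CPM of input, with a log2 fold change of -0.90 (SE 0.71). An antisense gene, PCGF3-AS1, shares 1514 of its exonic bases on the opposite strand and had input counts of 1 and 7 and CyCoNP PD counts of 10 and 8.

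PCGF6, the subunit of the complex with E2F6, MGA and L3MBTL2 (ENSG00000156374, chr10:103302796-103351144), had input counts of 7 and 8, CyCoNP PD counts of 4 and 0, and LacZ PD counts of 1 and 2. Its log2 fold change of -2.32 (SE 1.20) was the lowest of the 9, and both CyCoNP PD libraries lay below both input libraries. The adjusted p was 1.00 by edgeR.

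RING1 and RNF2 carry the ubiquitin ligase activity. RING1 (ENSG00000204227, chr6:33208500-33212722) had input counts of 6 and 3, CyCoNP PD counts of 3 and 5, and 0 in both LacZ PD libraries, with a log2 fold change of -0.14 (SE 1.23). RNF2 (ENSG00000121481, chr1:185045526-185102603) had input counts of 8 and 4, CyCoNP PD counts of 11 and 1, and LacZ PD counts of 0 and 1, with a log2 fold change of -0.54 (SE 1.11). The CyCoNP PD and input libraries overlapped for both, and their low counts left errors of over 1 on the log2 scale.

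None of the 3 core genes of Polycomb repressive complex 2 passed the test by edgeR. EZH2, its methyltransferase (ENSG00000106462, chr7:148807257-148884321), had input counts of 19 and 26, CyCoNP PD counts of 42 and 17, and LacZ PD counts of 0 and 3. EED, which binds the methyl mark (ENSG00000074266, chr11:86201212-86278813), had input counts of 10 and 22, CyCoNP PD counts of 44 and 11, and LacZ PD counts of 0 and 2. For both, the CPM of CyCoNP PD and input overlapped, at 26.5 to 33.0 CPM for EZH2 and 13.9 to 29.1 CPM for EED, and the log2 fold changes were 0.08 (SE 0.68) and 0.33 (SE 0.73). A noncoding gene shares 221 of the exonic bases of EED on the opposite strand.

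SUZ12, the scaffold of that complex (ENSG00000178691, chr17:31937007-32001038), had input counts of 26 and 14, CyCoNP PD counts of 10 and 3, and LacZ PD counts of 3 and 1. Both CyCoNP PD libraries, at 6.61 and 5.83 CPM, were below the 36.2 and 17.7 CPM of input. The log2 fold change was -1.96 (SE 0.90) with an unadjusted p of 0.0475 and an adjusted p of 0.912 by edgeR, which misses the limit. The pseudogene SUZ12P1, which can share reads with SUZ12, had input counts of 8 and 7 and CyCoNP PD counts of 4 and 2.

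Counted by whether the libraries overlap, both CyCoNP PD libraries were above both input libraries for 0 of the 9 members, beside 15.9% of all tested genes. They were below both for PCGF6, SUZ12 and PCGF3, 33.3% of the 9, beside 20.3% of all tested genes. Summed over the 9, the level was 186.7 and 142.7 CPM in input, 106.5 and 118.5 CPM after CyCoNP PD, and 212.0 and 128.5 after LacZ PD. The CyCoNP PD sums were the lowest, and that of LacZ PD 1 rests on 4 counts.

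**Figure D2:**
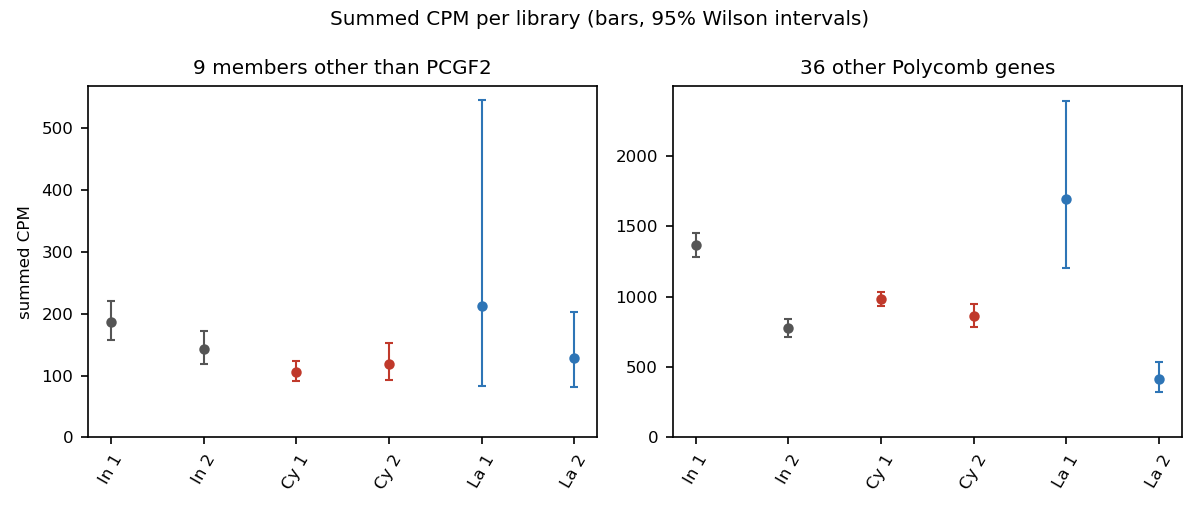
Summed CPM of the 9 members other than PCGF2 (left) and of the 36 further Polycomb genes (right) in input (In), CyCoNP PD (Cy) and LacZ PD (La) libraries 1 and 2, with 95% Wilson intervals. The 9 members sum to 106.5 and 118.5 CPM in CyCoNP PD, below the 186.7 and 142.7 CPM of input.

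The LacZ comparisons gave no calls among these genes. In LacZ PD against input, edgeR called 0 of the 9 higher and 0 lower, beside 0% of all genes in either direction, and 0 of the 9 had an unadjusted p under 0.05, beside 0.74% and 6.28%. In CyCoNP PD against LacZ PD, it likewise called 0 of the 9, beside 0% of all genes in either direction, with 0 at an unadjusted p under 0.05, beside 4.74% higher and 0.462% lower. DESeq2 gave none of the 9 an adjusted p in either, so it could make no call. Their median log2 fold changes were -1.04 in the first, with -0.68 over all genes, and 0.63 in the second, with 0.64 over all genes. These comparisons share libraries with the first and with each other, and the 9 genes had 4 counts in LacZ PD 1 and 18 in LacZ PD 2 altogether. CyCoNP itself was not called in CyCoNP PD against LacZ PD, at a log2 fold change of 6.39 (SE 0.93, adjusted p = 0.0785 by edgeR). The lack of calls in that comparison therefore cannot tell whether the members were recovered.

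**Figure D3:**
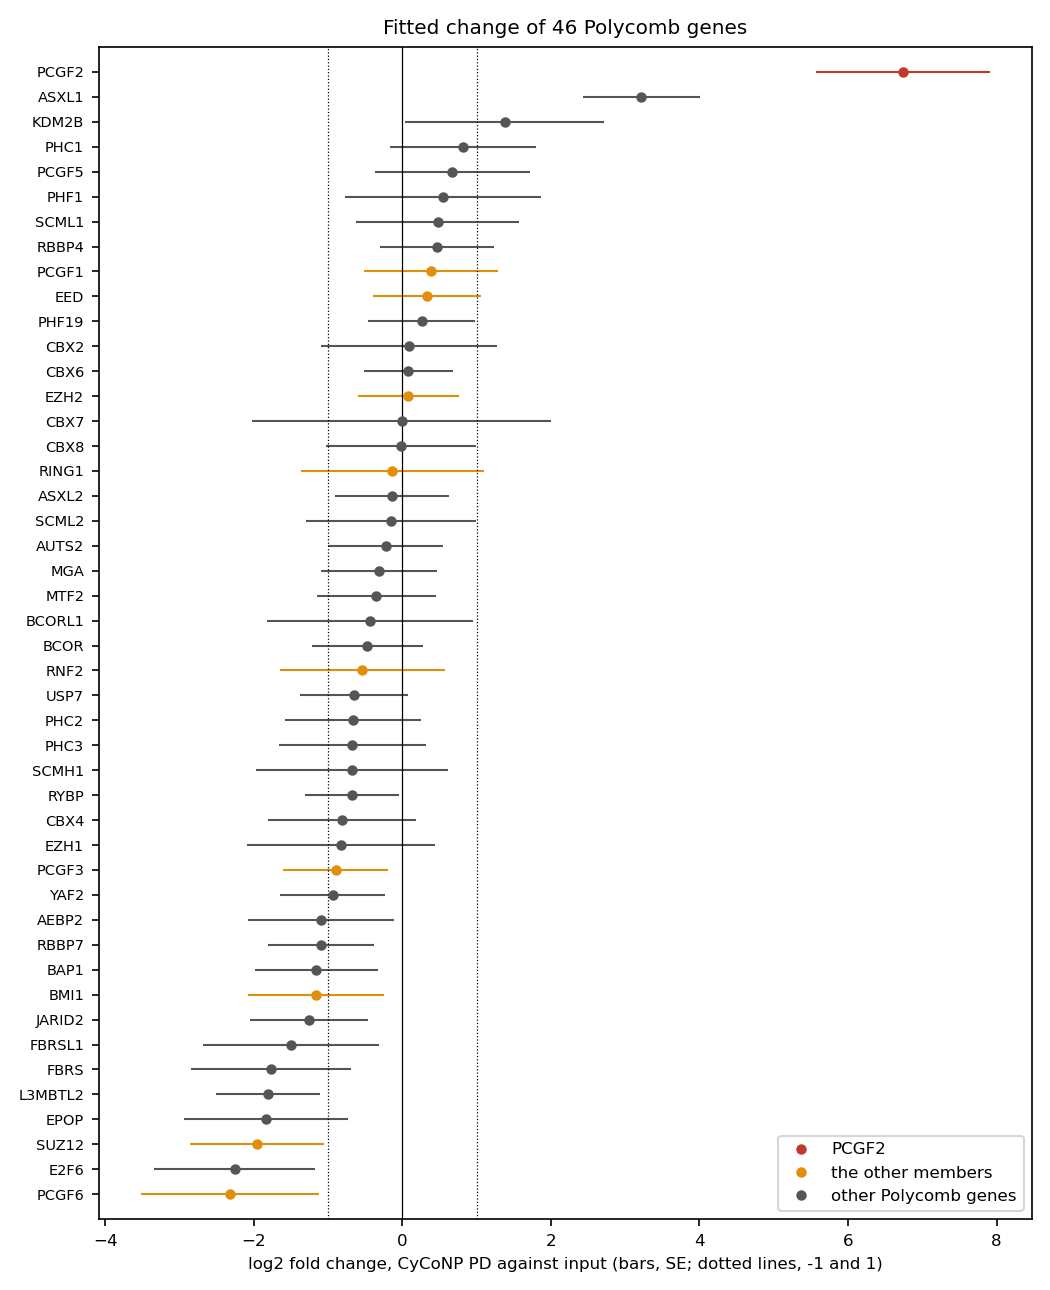
Log2 fold change in CyCoNP PD against input, with its SE as a bar, for PCGF2 (red), the other 9 members (orange) and 36 further Polycomb genes (grey), from lowest to highest. PCGF2 is at 6.74 and ASXL1 at 3.22, and the 9 members run from -2.32 to 0.39.

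The 36 further Polycomb genes give the wider background, and all of them passed the count minimum. In CyCoNP PD against input edgeR called 0 of them, beside 0.119% of all genes higher and 0.00796% lower. An unadjusted p under 0.05 was met by 1 higher and 1 lower gene, 2.78% of the 36 each, beside 3.08% and 2.32% of all genes. DESeq2 gave 12 of the 36 an adjusted p and called 0 of these. Their median log2 fold change was -0.46, with 10 above 0 and 26 below. Both CyCoNP PD libraries were above both inputs for PHC1 and ASXL1, 5.56% of the 36 beside 15.9% of all genes, and below both for 10, 27.8% beside 20.3%. The summed level was 1366 and 775 CPM in input, 983 and 864 CPM after CyCoNP PD, and 1696 and 414 after LacZ PD, so the groups overlapped.

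ASXL1 was the gene with the largest fold change among these 36. It encodes the partner of BAP1, the enzyme that removes the ubiquitin which Polycomb repressive complex 1 adds. The gene (ENSG00000171456, chr20:32358330-32439319) had input counts of 20 and 13, CyCoNP PD counts of 135 and 160, and 2 in each LacZ PD library. Its CPM were 27.9 and 16.4 in input, 89.3 and 310.8 after CyCoNP PD, and 106 and 14.3 after LacZ PD. Both CyCoNP PD libraries were above both inputs, and the 2 counts of LacZ PD 1 lie above the lower of them.

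The log2 fold change of ASXL1 in CyCoNP PD against input was 3.22 (SE 0.78), with an unadjusted p of 0.0010 and an adjusted p of 0.183 by edgeR, outside the limit. With the replicate number as a block, edgeR called it at 3.05 (SE 0.58, adjusted p = 2.36e-05), in a fit that called 1.53% of all genes higher. DESeq2 gave an adjusted p of 0.0512 without the block and 0.0305 with it, the latter in a fit that called 1.74% of the genes with an adjusted p higher. Like PCGF2, ASXL1 was higher in CyCoNP PD 2 than in CyCoNP PD 1, by 3.48 times, and leaving out CyCoNP PD replicate 1 gave 3.87 and leaving out CyCoNP PD replicate 2 gave 2.12. The former was called, as was the value with no count filter, in fits that called 0.687% and 0.444% of all genes higher.

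BAP1 and ASXL2, from the same deubiquitinating complex, lay below 0 in CyCoNP PD against input. Against LacZ PD, ASXL1 had a log2 fold change of 3.06 (SE 0.98, adjusted p = 0.689 by edgeR), and 3.22 (adjusted p = 0.0179) with the replicate block, which called 0.724% of all genes higher. The longest complement of ASXL1 to a CyCoNP probe was 11 bases, as in PCGF2.

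**Figure D4:**
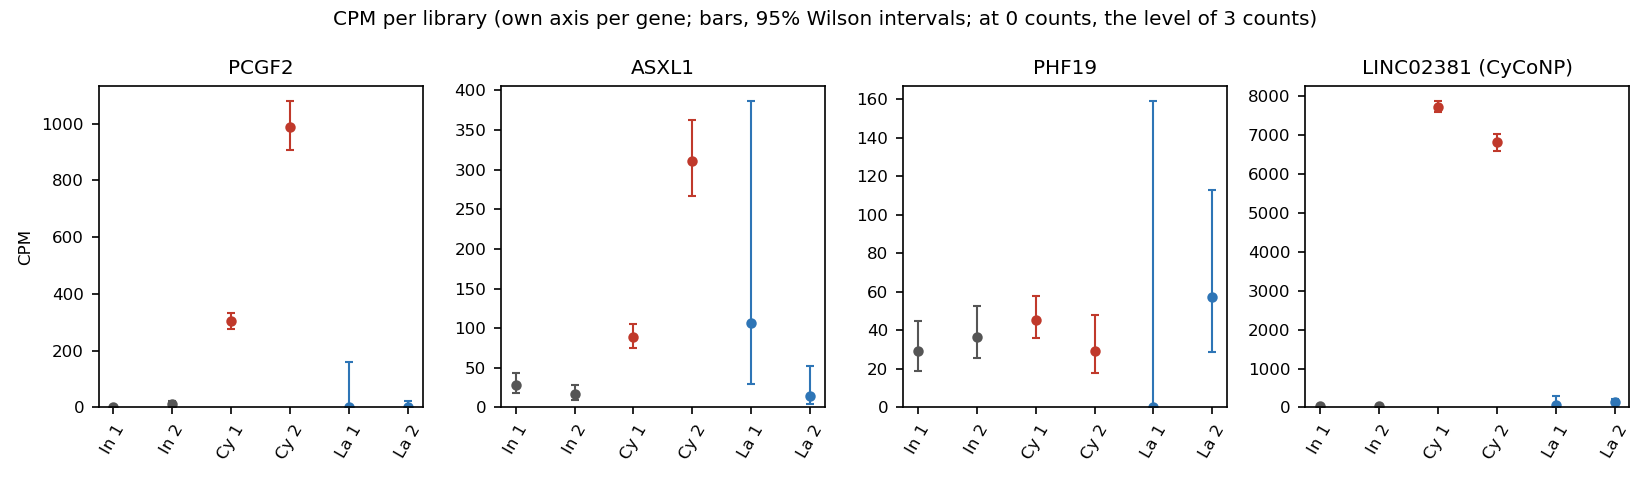
CPM of PCGF2, ASXL1, PHF19 and LINC02381 (CyCoNP) in input (In), CyCoNP PD (Cy) and LacZ PD (La) libraries 1 and 2, with 95% Wilson intervals (at 0 counts, the level of 3 counts) and a separate linear axis for each gene. PCGF2 and ASXL1 are higher in CyCoNP PD 2 than in CyCoNP PD 1, whereas CyCoNP is not.

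KDM2B, a histone demethylase of the PCGF1 complex, came next at 1.38 (SE 1.33). It had input counts of 35 and 4, CyCoNP PD counts of 179 and 1, and LacZ PD counts of 6 and 0, so that the first library of each group was the higher. The same 3 libraries held the high sums of the stromal markers, and the part of that in the KDM2B counts was not tested. PHC1, a polyhomeotic subunit that joins the PCGF2 complex, had input counts of 4 and 7, CyCoNP PD counts of 22 and 5, and 0 in both LacZ PD libraries, with a log2 fold change of 0.82 (SE 0.98). It was the only one of the 36 with both CyCoNP PD libraries above the other 4, beside 6.55% of all tested genes, and its exons share 1107 bases with M6PR on the opposite strand. M6PR had input counts of 45 and 85, CyCoNP PD counts of 213 and 71, and LacZ PD counts of 4 and 28. The part of M6PR reads in the PHC1 counts was not tested. PCGF5 and PHF1 completed the 5 highest, at 0.67 (SE 1.05) and 0.55 (SE 1.32).

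The 5 lowest of the 36 are described next. E2F6, a DNA-binding subunit of the PCGF6 complex, had input counts of 8 and 19 and CyCoNP PD counts of 3 and 3, with a log2 fold change of -2.26 (SE 1.08). L3MBTL2, which binds the same complex, had input counts of 52 and 63, CyCoNP PD counts of 42 and 6, and LacZ PD counts of 0 and 2, at -1.81 (SE 0.70) with an unadjusted p of 0.0216 and an adjusted p of 0.790 by edgeR. FBRS and FBRSL1, partners of PCGF3, were at -1.77 (SE 1.08) and -1.50 (SE 1.18), and EPOP, a partner of Polycomb repressive complex 2, at -1.84. None of the 5 passed the test by edgeR.

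In LacZ PD against input, edgeR called 0 of the 36, beside 0% of all genes in either direction. With p left unadjusted 0 of the 36 were higher, beside 0.74% of all genes. Those lower were 4 of the 36, a larger share than the 6.28% of all genes. DESeq2 gave none of the 36 an adjusted p in this comparison. With the replicate block edgeR called USP7, a deubiquitinase of the PCGF1 complex, lower at -4.04 (SE 1.13, adjusted p = 0.0425), in a fit that called 0.796% of all genes lower, and this gene is named after its value was seen. USP7 had input counts of 113 and 48, CyCoNP PD counts of 80 and 40, and LacZ PD counts of 1 and 0. In CyCoNP PD against LacZ PD, where edgeR did not call CyCoNP itself, it called 0 of the 36, beside 0% of all genes in either direction. With p left unadjusted 4 of the 36 were higher and 1 of the 36 lower, larger shares than the 4.74% and 0.462% of all genes. ASXL2, BCOR and USP7, named after their values were seen, met this limit in both LacZ comparisons. Each had at most 1 count in any LacZ PD library. DESeq2 gave 7 of the 36 an adjusted p and called 0 of these, beside 1.17% higher and 0.0653% lower of the genes it gave one.

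Among genes with at least 100 counts, the 5 most like PCGF2 were not Polycomb genes. Of the 9 other members only EZH2 reached that count, and most of the 36 further genes did not, so these could not appear. Over the 6 libraries and the 4315 genes with at least 100 counts, the highest Pearson correlations of log2 CPM with PCGF2 were 0.992 for CFAP97, 0.992 for CTDNEP1, 0.991 for MAPRE3, 0.988 for IGF2 and 0.987 for CDK11B. These are descriptions over 6 points that share groups and depths, and they rest on the pattern for which PCGF2 was picked. The correlation reads the shape over the libraries and not the size of the change. CFAP97 had 26.5 and 37.9 CPM in input, 74.7 and 106.8 CPM in CyCoNP PD, and 53.0 and 35.7 CPM in LacZ PD. CTDNEP1, a nuclear envelope phosphatase gene, had input counts of 18 and 35, CyCoNP PD counts of 358 and 352 (237 and 684 CPM), and LacZ PD counts of 1 and 3. IGF2, an insulin-like growth factor gene, had input counts of 2499 and 2873, CyCoNP PD counts of 26500 and 16739 (17525 and 32510 CPM), and LacZ PD counts of 80 and 426. CyCoNP stood 40th by this measure at 0.944, and ASXL1, the highest of the Polycomb genes with enough counts, stood 139th at 0.842.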

How the data were processed

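Gene counts were analysed for 6 libraries. Nanopore reads of PCR-amplified cDNA were filtered by the authors for length, mapped to GRCh38 by minimap2 2.24-r1122 and given to Ensembl genes by Bambu. They deposited counts per gene, without normalization. By the paper's methods, input and pull-down samples differed in the amount taken into reverse transcription. Fewer PCR reactions were pooled for input than for CyCoNP PD and LacZ PD, at the same number of cycles. The effect of this difference on the comparisons with input was not tested. The authors also deposited CPM, which equal the counts over the library total within 5.1e-11 and served as a check. Whether counting used strand is not given in the sources used here.

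The libraries held 18870 to 1512148 counts. Genes with at least 10 counts in total (12565) entered 1 edgeR fit (4.0.16, R 4.3.3) of all 6 libraries, with TMM, the quasi-likelihood F test and adjustment after Benjamini and Hochberg over all genes. A call was an adjusted p under 0.05 with a log2 fold change past 1 in either direction. The SE was derived from the F statistic. The fit was also run on simulated counts, with changes set only in genes above the median level, a shared spread and no replicate pairing. Its outcome is not given here and bears on no result for genes with few counts. Positions and transcripts came from GENCODE v44, on the same build, which held 12528 of the tested genes. Intervals are Wilson intervals at 95%, and the floor is 3 counts.

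Same-numbered libraries deviated together from their group means, at correlations of 0.257 to 0.449 over 6 pairs, 3 of them distinct. In the fits they were treated as pairs only with the replicate block, and the main fit held no block. The pairing comes from the data and the barcodes in the column names. The methods name no block, so values with it are given where they change a call. In CyCoNP PD against input, edgeR called 0.119% of all genes higher without the block and 1.53% with it. Replicates differed beyond sampling noise (chi-square per degree of freedom 18.4, 14.3 and 4.11).

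The members and gene lists were chosen with earlier results of these data known. Named genes were the members, the 5 highest and 5 lowest of the further Polycomb genes with any called, CyCoNP, genes within 20000 bases of PCGF2 and the 5 genes most like it (log2 CPM with a prior count of 2). Each result was recomputed with DESeq2 1.42.0, its size factors in edgeR, scaling by library size, filterByExpr or no filter, a fit of the 2 groups alone, the replicate block, and each library left out.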

Additional observations from a re-analysis of the deposited data

How the results depend on the processing

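Of 79 recomputed counts of called Polycomb genes, 73 were unchanged, and every count for the 9 members other than PCGF2 stayed at 0 under the alternatives that could make a call. The recomputed counts reuse the same libraries. Most fits called few of all genes, so an unchanged 0 says little about the members. DESeq2, with or without the block, gave 2 of the 9 an adjusted p in CyCoNP PD against input and none in the other comparisons, so for the rest it bears on no call. In CyCoNP PD against input, 1 of the 36 further genes, ASXL1, was called with no count filter, with the replicate block and in DESeq2 with the replicate block, and leaving out single libraries gave 0 to 1. The replicate block also called 1 in LacZ PD against input and 1 in CyCoNP PD against LacZ PD, and it changed no call of the 9 members. The causes were not tested. The stricter filterByExpr kept 7035 genes, 6 of the 10 members and 17 of the 36.

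For PCGF2 the log2 fold change against input ran from 5.71 to 11.58 when single libraries were left out, the highest without input replicate 2, and was 3.19 with the CISD3 counts added. It was 6.99 with the replicate block. Against LacZ PD, where the value of 11.65 depends on the prior count, it ran from 10.66 to 11.90 over the left-out libraries, was 7.97 with DESeq2 and 7.39 in DESeq2 with the replicate block, and was 4.15 with the CISD3 counts added.

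Of 108 values for the single members with an adjusted p, 102 kept their direction and none was called, with a smallest adjusted p of 0.161. The 6 that changed sign came from left-out libraries. Over the left-out libraries EED ran from -0.14 to 1.03, EZH2 from -0.15 to 0.34, PCGF1 from -0.44 to 1.04 and RING1 from -1.40 to 0.73. The values that changed sign were -0.14 for EED, -0.15 for EZH2 and 0.42 for RING1 without input replicate 1, -0.01 for EZH2 and -0.44 for PCGF1 without CyCoNP PD replicate 2, and 0.73 for RING1 without CyCoNP PD replicate 1. With 2 libraries per group and few counts per gene, depth limits these values, most of all in LacZ PD.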
